A study of Mus musculus with 12 samples.

Results

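Hepatic stellate nuclei were examined in snap-frozen liver tissue (Liver) and in the cell preparation made from the same livers by collagenase perfusion (Cell Suspension). The nuclei were chosen by the cell type given to each nucleus in the deposited annotation, and all of them lay in 1 deposited cluster, number 20. There were 1022 such nuclei, 878 in Liver and 144 in Cell Suspension, among 35073 nuclei of both sample types. A further 17 nuclei with this annotation were assigned to cultured Primary Hepatocytes and were not used here. The 1022 nuclei carried 1021 barcodes, and 1 barcode occurred in more than 1 pool.

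Stellate cells lie between the hepatocytes and the endothelium of the liver sinusoid. They store vitamin A as retinyl esters, secrete growth factors and matrix proteins, and regulate sinusoidal blood flow. After liver injury they can become matrix-producing myofibroblasts, which is why they are known as the main source of fibrotic scar.

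Single-nucleus RNA sequencing was done on 8 male, wild-type mice aged 10 to 12 weeks, each of which gave a Liver and a Cell Suspension sample. The labels give the strain as C57BL6J, and the methods of the study give it as C57BL/6NTac. Liver was a piece of 1 lobe tied off and frozen after perfusion with a calcium-chelating buffer but before collagenase, so both sample types had been perfused. Cell Suspension had also been through collagenase, straining and repeated slow centrifugation, steps that enrich hepatocytes. Its stellate nuclei are those whose sample tag was assigned to it, and errors of assignment were not tested. The paper names such errors as possible for some nuclei of Primary Hepatocytes. The samples were tagged and sequenced in 6 pools of which 2 held no Liver sample, and these 2 held 58 of the 144 stellate nuclei of Cell Suspension. Those nuclei came from the Cell Suspension samples of mice 1, 2 and 3. Fits given below for pools without Liver therefore set these mice alone against all 8 Liver samples, and a lost call may reflect fewer samples.

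Each Liver sample held 64 to 185 stellate nuclei and each Cell Suspension sample 9 to 31. The unique molecular identifiers (UMIs, each standing for 1 captured RNA molecule) summed over the stellate nuclei of a sample came to 236238 to 754882 in Liver and to 27630 to 76185 in Cell Suspension. A single UMI was therefore worth 1.32 to 4.23 CPM (UMIs scaled to a common total for every sample) in Liver and 13.1 to 36.2 CPM in Cell Suspension, which limits what can be read from low genes in the latter.

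The annotation was first compared with 5 markers of the cell type. These were Reln, which encodes the secreted glycoprotein reelin, Dcn, which encodes the matrix proteoglycan decorin, Lrat, the enzyme that esterifies retinol for storage, Pdgfrb, a receptor for platelet-derived growth factor, and Nrxn3, which encodes a neurexin adhesion protein. At least 2 of the 5 were detected in 831 of 878 stellate nuclei of Liver (94.6%) and in 127 of 144 of Cell Suspension (88.2%). With every nucleus thinned to 1000 UMIs, these shares were 91.2% of 811 nuclei and 89.1% of 119 nuclei. The thinned share was 0.303% in endothelial and 0.110% in hepatocyte nuclei of Liver, and the unthinned share 0.728% and 2.99%. Nuclei with such pairs may have been annotated as stellate, so these shares do not measure background RNA. Markers of 3 other mesenchymal types were also measured. The 8 mesothelial genes summed to 4.2 to 180 CPM in Liver samples and to 0 to 93.6 CPM in Cell Suspension samples. Among them Wt1 was at a mean of 70.3 CPM in stellate nuclei of Liver (0 to 168 CPM among the mice, and 378 CPM in biliary nuclei), while Msln was at 0 (80.8 CPM in biliary nuclei). The annotated biliary class of Liver was mixed by its markers. It held the cholangiocyte gene Pkhd1 (3009 CPM) and the mesothelial genes Muc16 (816 CPM) and Gpm6a (1909 CPM). Levels given for biliary nuclei are therefore not those of cholangiocytes alone. The 9 smooth muscle genes summed to 214 to 393 CPM in Liver and 134 to 685 CPM in Cell Suspension, and the 10 portal fibroblast genes to 49.6 to 149 CPM and 0 to 59.3 CPM. The median smooth muscle sum in Liver was 258 CPM in stellate, 13.8 CPM in hepatocyte and 31.2 CPM in endothelial nuclei. The clusters had been named from markers, so these values describe the label and are no test of it.

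The genes with the largest folds in stellate nuclei of Liver were led by Bmp5 and Colec10. Since clusters were made from the same genes, the following levels are a description with no test, as mean CPM ± SD over 8 mice, and the fold is against the highest of the 5 other annotated types (endothelial, Kupffer, leukocyte, biliary and hepatocyte) after adding 1 CPM to both. Among 2032 genes of at least 100 CPM in stellate nuclei, 70 were at least 10-fold above every other type. All the genes named in this paragraph were highest in stellate nuclei in 8 of 8 mice. Bmp5, a bone morphogenetic protein ligand, was at 1900 ± 179 CPM, 292-fold above the next type. Colec10, which encodes a circulating collectin that recognises microbial sugars, was at 1192 ± 239 CPM, or 290-fold higher.

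Other genes of the 14 described here as the leading ones by fold belonged to a few classes. Adhesion and guidance genes were Ntm (neurotrimin, 139-fold), Reln (116-fold) and Robo2, a receptor for Slit ligands (94.1-fold). Matrix and plasma protein genes were Lama1, a laminin chain (113-fold), and Adamts13, the protease that cleaves von Willebrand factor (138-fold), which stood at 406 ± 64.5 CPM. Pth1r, the parathyroid hormone receptor, was 107-fold and Hhip, which binds hedgehog ligands, 72.3-fold higher. Lhx2, a transcription factor of stellate cells, was at 117 ± 27.8 CPM and 80.3-fold higher, and Nr1h5, a nuclear receptor, was 138-fold higher. Zfp804b, Carmn and Daam2 completed the group, at 78.7- to 98.3-fold. With spliced counts alone, 8 of the 14 genes were again among the leading 14, and with nuclei of at least 1000 UMIs, 13 were.

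**Figure D1:**
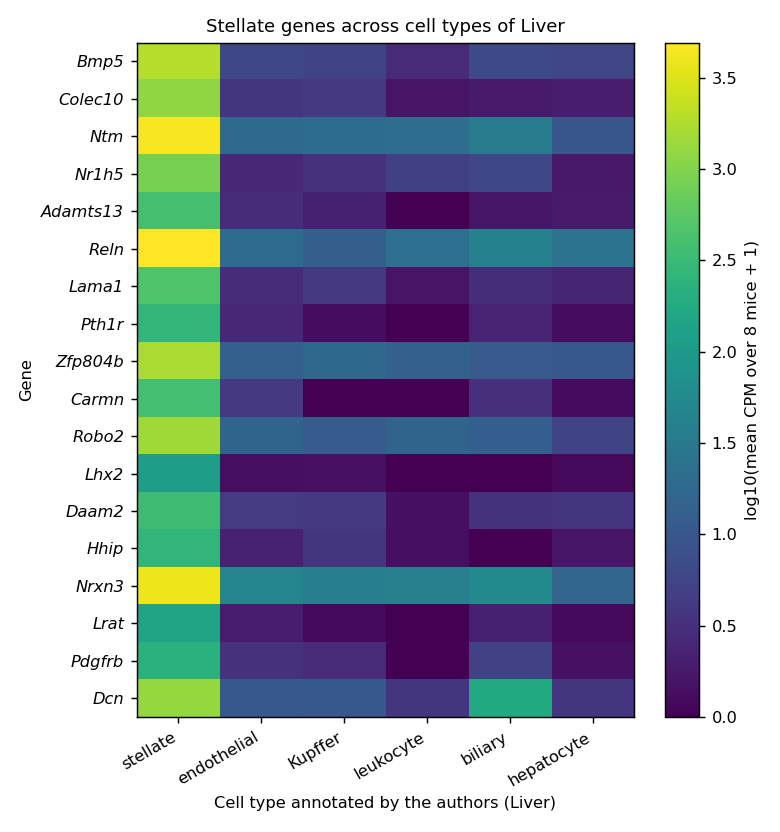
Colour shows log10 of the mean CPM plus 1 over 8 mice in each annotated cell type of Liver, for the 14 leading genes by fold in stellate nuclei and the other given markers. Stellate nuclei were highest for each of them, from Bmp5 (292-fold above the next type) to Dcn (7.1-fold).

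Of the given markers, those other than Reln ranked lower by fold. Nrxn3 was at 3990 ± 628 CPM and 71.1-fold above the next type, Lrat at 144 ± 43.7 CPM and 68.7-fold, and Pdgfrb at 227 ± 58.8 CPM and 43.3-fold. Dcn was at 1262 ± 275 CPM but also at 176 CPM in the mixed biliary class, so its fold was 7.1. Among secreted factors, Hgf, the growth factor that drives hepatocyte proliferation, was 8.0-fold higher and Il34, a ligand of the macrophage receptor Csf1r, 50.3-fold higher than in the next type. Among receptors, Pdgfra was 61.9-fold, Vipr1, a receptor for vasoactive intestinal peptide, 29.2-fold and Agtr1a, an angiotensin II receptor, 7.8-fold higher. The desmin gene Des, long used as a stellate marker in rodents, was at 33.4 ± 9.98 CPM. Acta2, the smooth muscle actin of myofibroblasts, was at 8.4 ± 10.8 CPM and was highest in stellate nuclei in only 4 of 8 mice. The collagen gene Col3a1 stood at 374 ± 58.6 CPM in stellate and 279 CPM in biliary nuclei, and was highest in stellate nuclei in 5 of 8 mice.

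Wt1, which encodes the Wilms tumour transcription factor and was listed as a mesothelial marker, was unevenly spread over the stellate nuclei of Liver. A Wt1 UMI was found in 69 of 878 nuclei (7.86%), and the 39 nuclei with at least 3 of them held 86.6% of its 283 UMIs. In Cell Suspension, with its shallower nuclei, 4 of 144 nuclei had a Wt1 UMI (2.78%), and 2 of these held 11 of the 15 UMIs. Myh11, a smooth muscle marker, had a UMI in 142 of 878 nuclei of Liver (16.2%). The 22 nuclei with at least 3 of them held 46.2% of its 273 UMIs. Whether the label includes smooth muscle nuclei was not tested.

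Stellate nuclei made up a smaller share of Cell Suspension than of Liver. The share of all nuclei in a Liver sample was 2.32% at the lowest, 4.49% at the median and 5.91% at the highest (mean 4.42% ± 1.28, SD, n = 8). In Cell Suspension it was 0.582%, 0.951% and 2.21% (mean 1.04% ± 0.502, SD, n = 8). The groups did not overlap, and the share was lower in Cell Suspension in 8 of 8 mice. The difference of -3.38 percentage points had a 2-sided exact permutation p of 0.000155, the smallest that 8 against 8 samples can give, and the exact test within mice gave 0.00781, also its smallest value. Of the nuclei not annotated as hepatocytes, stellate nuclei were 17.7% ± 5.44 in Liver and 6.93% ± 3.42 in Cell Suspension (exact permutation p = 0.000155). These include a class annotated as cultured cells, which held 172 nuclei of Liver and 780 of Cell Suspension. Without that class the shares were 18.6% ± 5.64 and 9.81% ± 4.60 (difference -8.74 points, exact permutation p = 0.00155, lower in 8 of 8 mice), and the groups overlapped, at 13.6% to 31.5% and 4.80% to 15.8%. The difference was -6.17 points without mouse 1, whose Liver sample was the highest (exact permutation p = 0.00583).

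**Figure D2:**
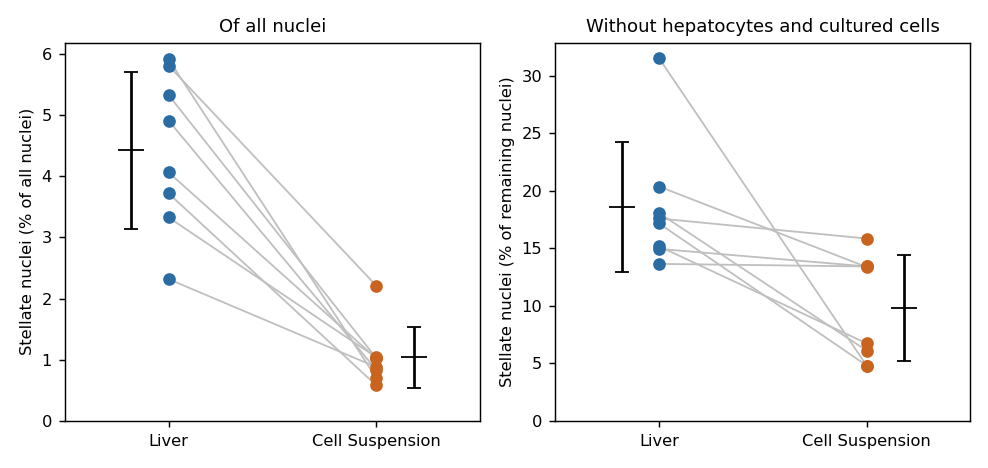
Stellate nuclei as percent of all nuclei (left) and of nuclei annotated neither as hepatocytes nor as cultured cells (right) in each of 8 Liver and 8 Cell Suspension samples, with lines joining samples of a mouse and bars for mean ± SD. Every mouse is lower in Cell Suspension, where the highest share of all nuclei (2.21%) lies below the lowest Liver sample (2.32%).

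The RNA content of the stellate nuclei also differed. Median UMIs per nucleus were 3315 ± 747 in Liver and 2264 ± 938 in Cell Suspension, a difference of -1052 (exact permutation p = 0.0266, lower in 6 of 8 mice), which missed the threshold when mouse 2, 5, 6 or 8 was left out (exact permutation p = 0.0577 to 0.0927). Unspliced molecules were 76.9% ± 1.67 of stellate UMIs in Liver and 69.2% ± 3.47 in Cell Suspension (exact permutation p = 0.000932, lower in 7 of 8 mice). The noncoding transcript Gm42418, which overlaps ribosomal RNA, took 1.33% ± 0.341 and 4.40% ± 2.27 of them (exact permutation p = 0.000466). RNA of hepatocytes was present in both, since 21 hepatocyte markers summed to 5169 ± 1843 CPM in stellate nuclei of Liver (2868 to 8331) and to 8702 ± 4793 CPM in Cell Suspension (3626 to 17006). That difference of 0.64 on the log2 scale did not pass the test (exact permutation p = 0.0855, higher in 6 of 8 mice), and the sums came to 24.8% and 31.2% of the level in hepatocyte nuclei of the same samples. Among the other markers, the 15 endothelial genes summed to 199 to 493 CPM in Liver and 132 to 474 CPM in Cell Suspension, and the 12 Kupffer genes to 22.9 to 54.2 and 0 to 72.4 CPM.

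Changes in level within stellate nuclei were tested on UMIs summed per sample with edgeR's quasi-likelihood test and Benjamini-Hochberg adjustment over all 13541 genes tested. Levels per sample from here on are CPM scaled by normalization factors, while sums over a list and levels in other cell types are plain CPM. Each log2 fold change is Cell Suspension over Liver with its standard error (SE). At an adjusted p under 0.05, 193 genes were higher (1.43%) and 24 lower (0.177%), with a median log2 change of -0.05 over every gene tested. The 193 and 24 were also counted by where a gene was expressed in Liver. These classes rest on the same stellate levels of Liver that enter each fold change. Part of a split between them was therefore favoured in advance. Of 2308 genes at least 2-fold higher in hepatocyte than in stellate nuclei, 121 rose (5.24%) and 0 fell, and their median was 0.46. Of 3454 genes at least 2-fold higher in stellate nuclei, 16 rose (0.463%) and 19 fell (0.55%), with a median of -0.19. The larger sum of hepatocyte markers given above lies on the same side as this class of rises, and its part in them was not tested. When factors were computed from all genes and not from those of at least 50 CPM, the median moved to -0.36 and the calls to 122 higher and 249 lower, 32.9% higher against 88.9%, so a small negative difference in a low gene should be read against that shift. With spliced counts alone the median over the 8311 genes tested was -0.60. Values given below for spliced counts alone should be read against that median. For the fit with pools without Liver no median over all genes is given, so list medians from it have no such reference.

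Of the 14 leading genes by fold in stellate nuclei of Liver, 0 were called by edgeR, 1 had an unadjusted p under 0.05 and 1 was called by DESeq2, and their log2 fold changes ran from -0.43 to 0.15 with a median of -0.24. Reln, the leading given marker, was at 3630, 4961 and 5741 CPM (lowest, median and highest sample) in Liver and at 3570, 4510 and 5533 CPM in Cell Suspension. The groups overlapped almost fully, with a log2 fold change of -0.11 (SE 0.15, adjusted p = 0.844). Dcn went from a mean of 1222 to 1573 CPM (0.35, adjusted p = 0.525). Lrat was at 139 and 228 CPM (0.63, adjusted p = 0.330), and its Cell Suspension samples ran from 82.6 to 412 CPM. Pdgfrb was at 220 and 174 CPM (-0.40, adjusted p = 0.543), Bmp5 had a log2 fold change of -0.43 (adjusted p = 0.245), Colec10 of -0.23 (0.659), Hgf of 0.18 (0.785) and Lhx2 of -0.19 (0.857). A Reln UMI was found in 91.1% of Liver and 92.4% of Cell Suspension stellate nuclei thinned to 1000 UMIs, against 2.48% and 2.53% of hepatocyte nuclei.

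Nrxn3 was the exception among the 5 given markers, for which the count of falls was 1 of 5, against 0.177% of all genes tested. Its gene lies at chr12:88722876-90334935 on the plus strand. It ran from 3168 over 3659 to 4798 CPM in Liver and from 859 over 2139 to 3128 CPM in Cell Suspension. The samples did not overlap, as for 1.12% of all genes tested. The mean fell from 3864 ± 629 to 2017 ± 735 CPM, a log2 fold change of -0.95 (SE 0.18, adjusted p = 0.00102). The call was lost with spliced counts alone (-1.30, adjusted p = 0.177) and when only the Cell Suspension samples of the pools without Liver (mice 1, 2 and 3) were used (-0.86, adjusted p = 0.0939). In the latter setting 1 of the 5 given markers rose and 0 fell, with a median of 0.10. In nuclei thinned to 1000 UMIs, Nrxn3 was detected in 85.3% of Liver and 73.9% of Cell Suspension nuclei, against 2.31% and 2.22% of hepatocyte nuclei.

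Lists of genes for stellate functions had few calls, and of all genes tested 1.43% rose and 0.177% fell. These shares are of the main fit and do not hold for the alternatives. With factors from all genes the median over all genes was -0.36 and many more genes fell. The closing section gives counts over all genes for each setting. Of 18 transcription factors 0 were called by edgeR's quasi-likelihood test, with 6 at an unadjusted p under 0.05 and 1 call by DESeq2, and their median was -0.20. With pool as a covariate 3 fell (median -0.48) and with factors from all genes 2 fell (median -0.54). With the Cell Suspension samples of pools without Liver 1 rose and 0 fell (median 0.06). Of 12 retinoid genes tested, 1 rose, the nuclear receptor gene Rxra (269 ± 44.3 to 490 ± 222 CPM, 0.81, adjusted p = 0.032), and its call was lost without mouse 3, 5, 6 or 7 (adjusted p up to 0.145). Its log2 fold change turned to -0.16 with spliced counts alone and was 0.46 with factors from all genes and 0.47 with the Cell Suspension samples of pools without Liver, none of them called. Of 18 secreted factors Vegfa, an endothelial growth factor, rose (39.2 ± 20.8 to 137 ± 89.5 CPM, 1.92, adjusted p = 6.3e-04), and its call was lost with spliced counts alone (0.58, adjusted p = 0.415), with samples thinned to the shallowest (1.88) and with the Cell Suspension samples of pools without Liver (1.28). Of 24 genes of activation and fibrosis Fn1, fibronectin, rose (265 ± 68.9 to 581 ± 312 CPM, 1.16, adjusted p = 0.0019), but its log2 fold change was 0.07 with spliced counts alone (adjusted p = 0.939), and with samples thinned it was 1.11 (adjusted p = 0.0501). Rxra, Vegfa and Fn1 stood at 35.4% to 58.3% of the level in hepatocyte nuclei of Cell Suspension, where they were higher than in stellate nuclei. The medians of these 3 lists were 0.13, 0.04 and 0.04. They were -0.20, -0.30 and -0.29 with factors from all genes, where the secreted factors had 1 rise and 2 falls. With the Cell Suspension samples of pools without Liver they were -0.04, 0.19 and 0.19. Of 44 matrix genes 1 rose and 2 fell, with a median of -0.16, and of 30 adhesion genes of neural type 0 rose and 2 fell, with a median of -0.28. With factors from all genes the matrix list had 0 rises and 8 falls (median -0.53), and with the Cell Suspension samples of pools without Liver 5 rises and 0 falls (median 0.09). The adhesion list had 0 rises and 4 falls (median -0.60) and 0 rises and 1 fall (median 0.10) under the same settings. Col1a1 was at 26.6 ± 10.7 and 17.0 ± 15.8 CPM, with 8 UMIs in all of Cell Suspension (adjusted p = 0.768). Acta2 had 26 UMIs in Liver and 0 in Cell Suspension (adjusted p = 0.452), which at this depth shows no difference.

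Genes listed for one end of the lobule had no call. Neither the 5 pericentral genes (median -0.47) nor the 5 periportal genes (median 0.10) held a call by edgeR or DESeq2, and 0 and 1 of them were at an unadjusted p under 0.05. Their medians were 0.12 and 0.65 with the Cell Suspension samples of pools without Liver, and -0.79 and -0.22 with factors from all genes. The counts of rises that follow stand beside 1.43% of all genes tested. The TGF-beta response list had 1 rise among 14 genes (median 0.50), Id2, an inhibitor of DNA binding, which missed the threshold without mouse 4 or 7 and with spliced counts alone (0.20, adjusted p = 0.877). The list of targets of the coactivator YAP had 1 rise among 12 (median 0.03), Ccn1, which is described below. Of 16 inflammatory genes Socs3 and Nfkbiz, a pair of feedback regulators, rose (median 0.26). Socs3 (2.76, adjusted p = 0.0238) missed the threshold without mouse 2, 3, 4 or 6, with spliced counts alone (2.18, adjusted p = 0.0854), with pool as a covariate (2.42) and with the Cell Suspension samples of pools without Liver (3.15). Nfkbiz missed the threshold without mouse 3, 6 or 8 and with spliced counts alone (0.04, adjusted p = 0.985).

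Many of the largest rises were in immediate early genes, which are transcribed within minutes of a stimulus without new protein synthesis and mostly encode transcription factors. Of 39 listed, 29 were tested, 19 rose and 0 fell (10 were not called, and 21 of the 29 had an unadjusted p under 0.05), with a median of 2.72. Over all genes tested 1.43% rose. In 9 of the 29 the samples did not overlap, against 1.12% of all genes tested. The whole list summed to 384 to 797 CPM in Liver samples and to 2507 to 6014 CPM in Cell Suspension samples. The medians of these sums were 523 and 3890 CPM in stellate, 528 and 4038 CPM in endothelial, and 748 and 8565 CPM in hepatocyte nuclei. All 19 were also called higher in hepatocyte and in endothelial nuclei. The shares of all genes called higher in those types are not given, so this count has no reference beside it. By the interaction test, described below, the change differed from that in endothelial nuclei for 3 of the 19.

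Among the AP-1 subunits, Jun, Fosb and Fos had larger rises than Junb and Jund. Jun, at chr4:95049034-95052222 on the minus strand, was at 11.4, 18.2 and 52.1 CPM in Liver (lowest, median, highest) and at 401, 584 and 1419 CPM in Cell Suspension. All samples of Cell Suspension lay above all of Liver, and the log2 fold change was 4.85 (SE 0.30, adjusted p = 7.6e-16). Fosb, at 0, 3.44 and 10.8 CPM in Liver, was at 27.8, 177 and 487 CPM in Cell Suspension, again with no overlap (5.19, SE 0.49, adjusted p = 2.9e-10). Fos rested on 18 UMIs in Liver and 55 in Cell Suspension, where 1 sample was at 0 (4.64, SE 0.46, adjusted p = 9.7e-10). Junb rose from 21.6 ± 19.01 to 169 ± 38.6 CPM and Jund from 19.02 ± 7.88 to 179 ± 90.2 CPM, both with no overlap. Junb lost its call with unspliced counts alone (0.34, adjusted p = 0.948). A Jun UMI was found in 2.22% of Liver and 24.4% of Cell Suspension stellate nuclei thinned to 1000 UMIs, against 5.45% and 78.8% of hepatocyte nuclei and 2.21% and 41.6% of endothelial nuclei.

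Other transcription factors and feedback genes rose as well. Egr1, a zinc finger factor induced by growth factors, rose from 13.3, 32.2 and 98.6 CPM to 180, 410 and 760 CPM, with no overlap (3.48, SE 0.31, adjusted p = 1.2e-10). Atf3, a stress-induced factor, rose from 12.7 ± 12.1 to 242 ± 144 CPM (4.20) and Btg2, an inhibitor of proliferation, from 9.41 ± 6.58 to 185 ± 82.0 CPM (4.28), both again with no overlap. Ccn1, a secreted matricellular protein, rose from 18.8 ± 13.4 to 203 ± 102 CPM (3.50). The feedback phosphatase Dusp1 had a smaller rise, from 20.4 ± 11.9 to 76.5 ± 60.8 CPM (1.84, adjusted p = 0.0115), and Maff, a small Maf factor, rested on 23 and 20 UMIs (2.72, adjusted p = 0.00996). Dusp1 missed the threshold without mouse 3 or 7, with unspliced (0.45, adjusted p = 0.920) and with spliced counts alone (0.70, adjusted p = 0.445). Maff missed it without mouse 3 or 4 and with the Cell Suspension samples of pools without Liver (2.16). Of the 19 genes, 8 of 12 that could be tested stayed called with unspliced counts alone and 13 of 17 with spliced counts alone, and 13 of 19 when only the Cell Suspension samples of pools without Liver were used.

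These levels have to be read beside those of hepatocyte nuclei. In Cell Suspension the 19 genes stood at a median of 45.0% of their level in hepatocyte nuclei (26.6% to 103%), and the 21 hepatocyte markers at 33.4% (16.3% to 58.3%). Of the 19, 14 lay within the range of the hepatocyte markers, and 5 lay above it, namely Fosb (95.6%), Ccn1 (85.3%), Junb (65.3%), Dusp1 (87.7%) and Dusp6 (103%). In Liver the 19 had stood at 94.9% (23.2% to 430%) and the hepatocyte markers at 25.5% (15.1% to 52.5%). The part of hepatocyte RNA in these rises was not tested. The change differed from that in hepatocyte nuclei for 3 of the 19, all with the smaller change in stellate nuclei, which were Atf3 (-2.88, adjusted p = 4.4e-05), Ier2 (-1.89, 0.00334) and Egr1 (-1.71, 0.0274).

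**Figure D3:**
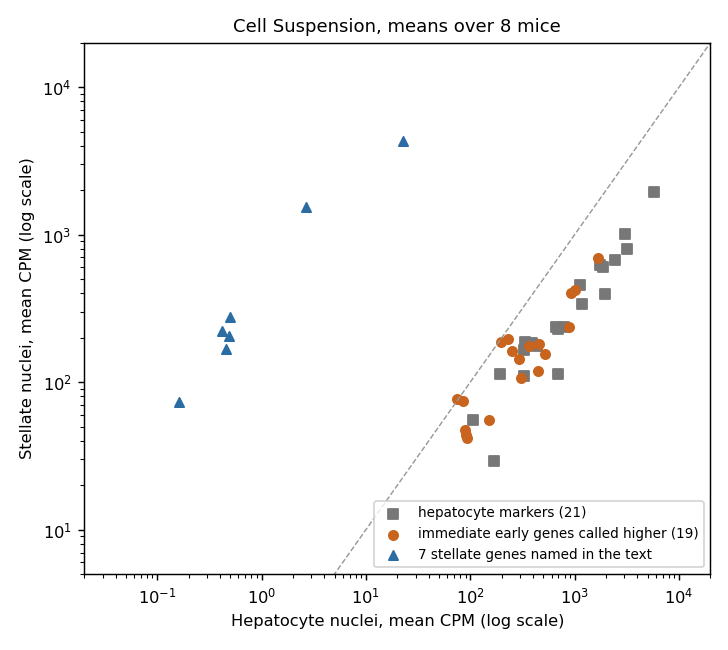
Mean CPM (before normalization factors, log scale) in stellate against hepatocyte nuclei of Cell Suspension over 8 mice for 21 hepatocyte markers, the 19 immediate early genes that rose and 7 stellate genes (Reln, Dcn, Lrat, Pdgfrb, Prelp, Rgs5 and S1pr3), with a dashed line of equal levels. Of the 19 immediate early genes 18 lie below the line. The hepatocyte markers lie below it and the 7 stellate genes above it, sides favoured in advance because both sets were chosen by cell type.

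**Figure D4:**
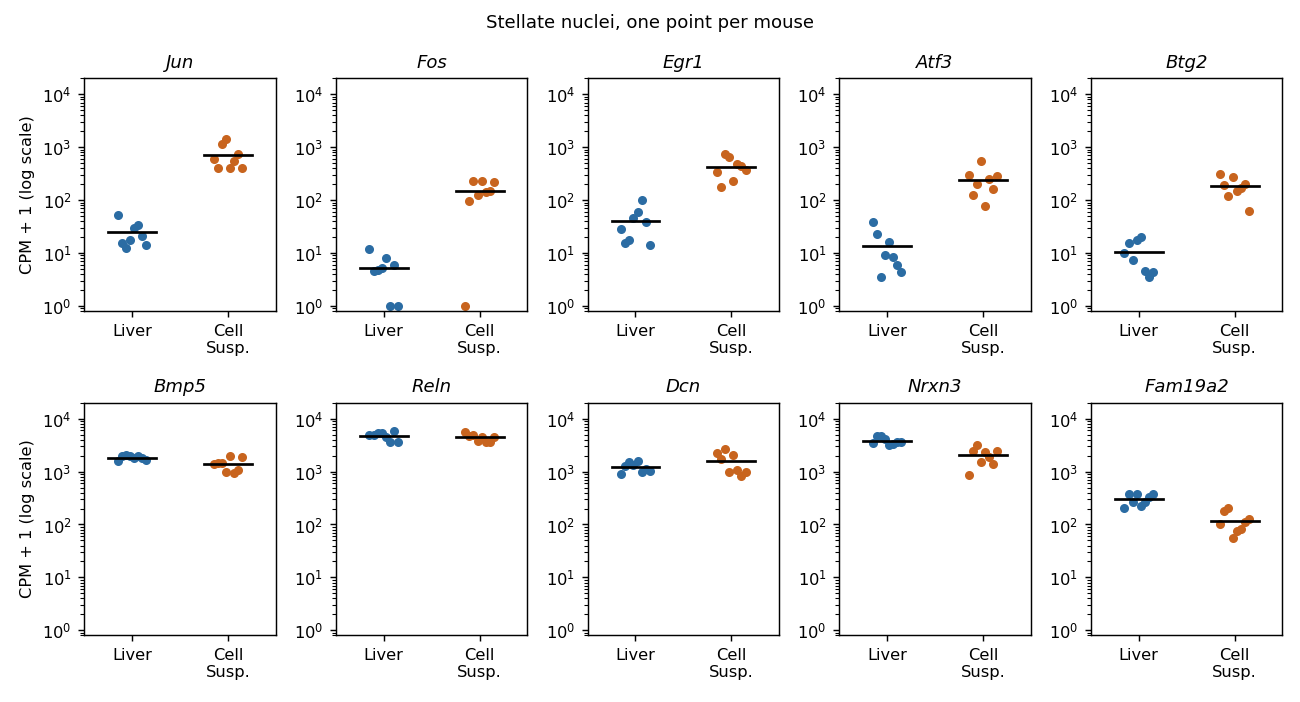
Scaled CPM (plus 1, log scale) of 10 named genes in stellate nuclei of each of 8 Liver and 8 Cell Suspension samples, with lines at group means. Jun lies at 11.4 to 52.1 CPM in Liver and 401 to 1419 CPM in Cell Suspension, whereas Reln spans 3630 to 5741 and 3570 to 5533 CPM.

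The 250 bases before the start sites of these genes were searched on both strands for 3 sequence motifs, in promoters of RefSeq on GRCm38.p6. The full cyclic AMP response element, TGACGTCA, was present in a window of 3 of the 17 genes searched (17.6%), against 508 of 32851 promoter windows (1.55%), and a gene can have several windows. The 17 were those of the 19 that rose other than Egr1 and Ier2. TGANTCA, the AP-1 element, was in 1 of 17 (5.88%, all promoters 6.75%) and the CArG box, which binds serum response factor, in 1 of 17 (all promoters 1.47%). A match is no evidence of binding. The windows with TGACGTCA (in capitals) are shown 5′ to 3′ on the strand of the gene, because these 3 members share the motif. They lie at chr1:134079156-134079405 (minus strand) for Btg2, chr17:26508473-26508722 (minus strand) for Dusp1 and chr15:79347270-79347519 (plus strand) for Maff, with the first base of the motif 166, 143 and 29 bases before the start.
Btg2: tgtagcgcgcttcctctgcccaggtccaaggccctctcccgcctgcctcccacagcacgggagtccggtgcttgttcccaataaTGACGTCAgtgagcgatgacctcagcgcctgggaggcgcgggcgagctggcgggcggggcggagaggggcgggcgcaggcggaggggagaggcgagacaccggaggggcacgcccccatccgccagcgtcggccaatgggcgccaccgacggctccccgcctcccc
Dusp1: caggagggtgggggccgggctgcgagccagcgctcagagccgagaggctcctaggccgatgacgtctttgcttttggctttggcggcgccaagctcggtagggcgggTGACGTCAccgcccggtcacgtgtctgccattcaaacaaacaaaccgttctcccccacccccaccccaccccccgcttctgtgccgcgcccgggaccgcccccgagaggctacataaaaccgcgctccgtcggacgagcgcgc
Maff: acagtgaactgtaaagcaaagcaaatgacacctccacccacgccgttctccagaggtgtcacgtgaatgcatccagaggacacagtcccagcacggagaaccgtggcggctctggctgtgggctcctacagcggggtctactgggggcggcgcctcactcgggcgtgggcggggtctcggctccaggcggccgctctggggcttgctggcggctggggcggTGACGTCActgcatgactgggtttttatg

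Of 10 heat shock genes tested 5 rose, against 1.43% of all genes tested, with a median of 1.14. With spliced counts alone all 5 calls were lost and the median was 0.14, against -0.60 for all genes in that fit. With the Cell Suspension samples of pools without Liver 1 gene was called and the median was 0.80. Hspa8, the constitutive Hsp70, was at 15.3, 37.8 and 53.1 CPM in Liver and at 96.8, 121 and 306 CPM in Cell Suspension. Its samples did not overlap (2.18, SE 0.31, adjusted p = 7.0e-06), and it stood at 47.4% of the level in hepatocyte nuclei. Its call was lost with unspliced (1.47, adjusted p = 0.535) and with spliced counts alone (1.23, adjusted p = 0.159). The other 4 (Hspa5, Hsp90aa1, Hsp90ab1 and Dnajb1) missed the threshold when 1 mouse or another was left out. Of 24 contractile and cytoskeletal genes 2 rose, with a median of 0.05. They were the cytoplasmic actins Actb, from 126 ± 44.3 to 581 ± 226 CPM with no overlap (2.18, adjusted p = 6.0e-09), and Actg1, from 39.4 ± 23.4 to 138 ± 90.4 CPM (1.95, adjusted p = 0.00134), whose call was lost with unspliced (2.57) or spliced counts alone (0.84), thinned samples (2.03) or Cell Suspension of pools without Liver (0.91). Both rose more in hepatocyte nuclei, by differences of -1.70 (adjusted p = 4.8e-05) and -3.18 (2.4e-07), stellate minus hepatocyte. Krt18, a keratin of epithelial cells, was at 23.3 ± 17.3 and 271 ± 282 CPM (3.66, adjusted p = 2.5e-08) and at 39.5% of its level in hepatocyte nuclei of Cell Suspension.

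Of the 21 hepatocyte markers, 7 rose (Pck1, Fga, Fgb, Fgg, Apob, Cyp3a11 and Glul) and 0 fell, with a median of 0.66. The share that rose was 1.43% of all genes tested and 5.24% of genes at least 2-fold higher in hepatocyte nuclei. With spliced counts alone 1 marker rose and 1 fell, and their median of -0.53 was close to the -0.60 of all genes in that fit. With the Cell Suspension samples of pools without Liver 1 rose and 0 fell (median -0.10). With pool as a covariate 13 rose (median 0.99), with the replicate block 9 (median 0.54) and with unspliced counts alone 8 (median 0.97), and 0 fell. Cyp3a11 and Apob lost their call without mouse 7 (adjusted p = 0.329 and 0.0624) and Glul without mouse 4 (adjusted p = 0.154). Pck1, the enzyme that commits carbon to gluconeogenesis, went from 67.4, 152 and 385 CPM to 74.9, 683 and 1767 CPM (2.17, SE 0.32, adjusted p = 1.5e-05). The groups overlapped because 2 Cell Suspension samples, at 74.9 and 380.0 CPM, lay below the highest of Liver. Pck1 stood at 25.4% of its level in hepatocyte nuclei of Cell Suspension. Alb, at 778 ± 226 and 1049 ± 406 CPM, was not called (0.43, adjusted p = 0.407).

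Of the genes at least 2-fold higher in stellate than in hepatocyte nuclei of Liver, 16 rose, and several of these were near 0 in hepatocyte nuclei of both sample types. S1pr3, a receptor for sphingosine 1-phosphate, was at 0, 9.34 and 17.8 CPM in Liver and at 0, 41.7 and 262 CPM in Cell Suspension, with 37 and 26 UMIs. The groups overlapped, and the log2 fold change was 2.62 (SE 0.55, adjusted p = 0.00323). It lost its call without mouse 1 (adjusted p = 0.0598) and with pool as a covariate (2.04, adjusted p = 0.0684). In hepatocyte nuclei S1pr3 was at 0.0506 and 0.163 CPM. Prelp, a matrix proteoglycan gene related to decorin, was at 41.3, 84.1 and 123 CPM and at 81.1, 210 and 342 CPM (1.26, SE 0.28, adjusted p = 0.00545). The groups overlapped again, and in hepatocyte nuclei it was at 0.431 and 0.486 CPM. Celf2, an RNA-binding protein gene, rose from 908 ± 141 to 2003 ± 1198 CPM (1.11, adjusted p = 0.00308) and was at 1558 CPM in hepatocyte nuclei of Cell Suspension. Its call was lost with spliced counts alone (0.41, adjusted p = 0.710), with pool as a covariate (0.52, adjusted p = 0.230), with TMMwsp, another form of the factors (0.72), and with factors from all genes (0.74). Pcdh15, a protocadherin, rose from 145 ± 36.8 to 353 ± 229 CPM (1.28, adjusted p = 0.00798, lost without mouse 1, 3 or 4).

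Calls in this class depended on the counts and covariates used. Of the 16, 4 of 11 testable genes stayed called with unspliced counts alone (6 of 11 kept their sign) and 4 of 15 with spliced counts alone (15 of 15 kept their sign). With the pool as a covariate 3 of 16 stayed called, and with the Cell Suspension samples of pools without Liver 14 of 16 did, and all 16 kept their sign in both. Leaving out 1 mouse kept 7 to 16 calls, with 7, 8 and 9 kept without mouse 1, 2 and 3. These are the mice whose Cell Suspension was in the pools without Liver, so pool and mouse cannot be told apart there. Prelp had a log2 fold change of 0.53 with spliced counts alone and of 0.84 with pool as a covariate, neither called. With unspliced counts alone it had a log2 fold change of -0.28, Sod3 (extracellular superoxide dismutase) of -0.75 and Tmsb10 (a thymosin that binds actin) of -2.68. Rgs5, a regulator of G protein signalling in pericytes, was at 126 ± 43.4 and 284 ± 224 CPM (1.16, adjusted p = 0.0373) and lost its call without mouse 1, 2, 3, 5 or 6. It was also lost with pool as a covariate (0.06, adjusted p = 0.978), with unspliced counts alone (0.21, adjusted p = 0.885), with DESeq2 (1.20, adjusted p = 0.0631), and with edgeR's own filter, total UMIs, thinning or either other set of TMM factors. The lower unspliced share of Cell Suspension given above was not tested for its part in these rises.

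Falls were fewer, and 17 of the 24 were in genes longer than 100 kb, as were 2454 of all 13541 genes tested. The 24 genes had a median length of 223 kb, against 29.0 kb for all genes tested and 66.7 kb for genes of at least 50 CPM. The other 7 ran from 7.93 to 99.5 kb, Tnxb (49.3 kb) among them.

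Plxna4, a receptor for semaphorins, was at 103, 384 and 534 CPM in Liver and at 0, 30.2 and 189 CPM in Cell Suspension. The groups overlapped slightly (-2.21, SE 0.41, adjusted p = 5.1e-04), and with spliced counts alone the change was -0.64 (adjusted p = 0.660). In hepatocyte nuclei its change was 0.32 and in endothelial nuclei -0.33. Its level in Liver was higher in endothelial (690 CPM) and biliary nuclei (2054 CPM) than in stellate nuclei. Gpr39, a zinc-sensing receptor, fell from 102 ± 42.4 to 18.4 ± 20.1 CPM with no overlap (-2.42, adjusted p = 0.00165). Its changes in hepatocyte and endothelial nuclei were 0.06 and 0.16. The phospholipase gene Plce1 and the laminin chain Lama2 fell by 1.45 and 1.05 on the log2 scale, while their changes were 0.11 and 0.40 in hepatocyte and 0.73 and 0.45 in endothelial nuclei. Lama2 missed the threshold without mouse 6 (adjusted p = 0.0578), and its difference from the endothelial change was not called (interaction test, adjusted p = 0.195). Flt1, a receptor for vascular endothelial growth factors, was at 60.2 CPM in stellate and 720 CPM in endothelial nuclei of Liver. In stellate nuclei of Cell Suspension it rested on 4 UMIs. Its fall missed the threshold without mouse 1, 3, 5 or 8 (adjusted p up to 0.0627). Prdm6, a transcriptional regulator at 28.1 ± 16.2 CPM in Liver, had no UMI in Cell Suspension, where 1 UMI was worth at least 13.1 CPM.

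**Figure D5:**
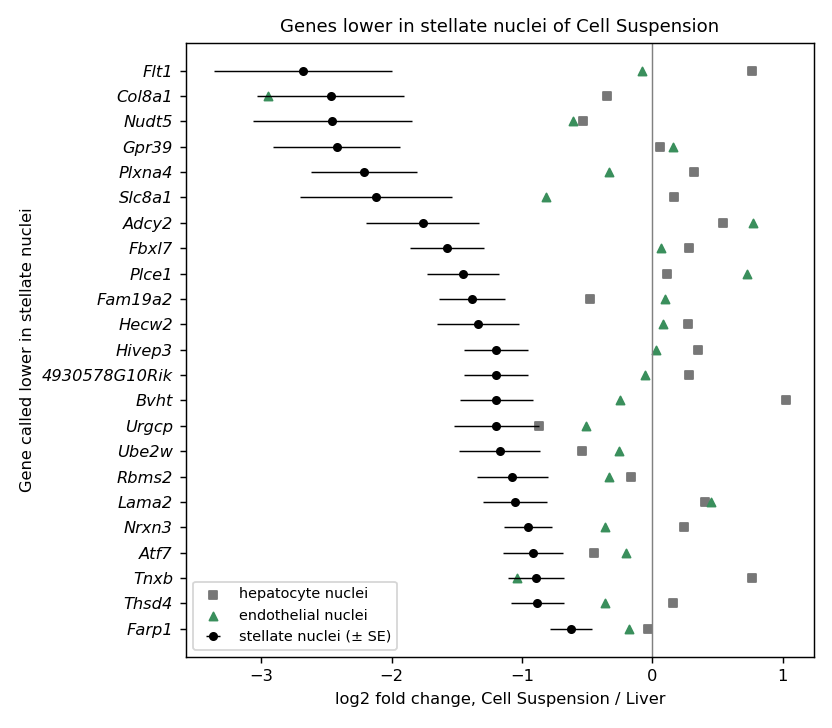
Log2 fold change, Cell Suspension over Liver, of 23 genes that fell in stellate nuclei (black points, ± SE), with the change of the same gene in hepatocyte (squares) and endothelial nuclei (triangles). Prdm6, with no UMI in Cell Suspension, is left out, and Plce1 lies at -1.45 in stellate but at 0.11 in hepatocyte and 0.73 in endothelial nuclei.

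Fam19a2, a secreted chemokine-like protein, was at 206, 300 and 376 CPM in Liver and at 55.7, 104 and 205 CPM in Cell Suspension. The groups did not overlap (-1.38, SE 0.25, adjusted p = 4.8e-04, lost with spliced counts alone at -3.12 and with pools without Liver at -0.93). Fbxl7, an F-box protein of ubiquitin ligases, fell from 204 ± 49.7 to 67.3 ± 31.8 CPM (-1.58, adjusted p = 3.8e-04). In endothelial nuclei of Liver Fbxl7 was far higher, at 2058 CPM. Tnxb, the matrix protein tenascin X, fell from 530 ± 107 to 282 ± 107 CPM (-0.89, adjusted p = 0.0133). Its call was lost without mouse 1 (adjusted p = 0.0829). Tnxb also fell in endothelial nuclei (-1.04, edgeR adjusted p = 0.0319) but rose in hepatocyte nuclei (0.77, 0.00161). Col8a1, another of the 24, fell in endothelial nuclei too (-2.95, 0.0030). Nudt5, Urgcp, Ube2w and Atf7, also among the 24, fell in hepatocyte nuclei (-0.87 to -0.45, edgeR adjusted p at most 3.6e-04). None of the other falls was called lower in either type. The shares of all genes called lower in these types are not given. When only Cell Suspension samples of the pools without Liver (mice 1, 2 and 3) were used, 2 of the 24 falls stayed called and all 24 kept their sign. With unspliced counts alone 15 of 24 stayed called and with spliced counts alone 3 of 18, again with the sign kept by all that could be tested.

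The stellate change was next compared with that of endothelial and hepatocyte nuclei of the same samples by an interaction term. It was more positive than the endothelial change for 18 genes (0.133%) and more negative for 23 (0.17%). Of the 10 genes with the largest differences, 5 in each direction, 7 had no call in stellate nuclei themselves. Vipr1, at 516 ± 139 and 534 ± 222 CPM in stellate nuclei (0.02), rose by 2.83 in endothelial nuclei, a difference of -2.69 (adjusted p = 0.00608). The endothelial rise started from a mean of only 1.27 CPM in Liver. Tbx20, a cardiac and stellate transcription factor, differed by -2.56 (adjusted p = 6.7e-06), with a stellate change of -0.62 and an endothelial change of 2.00. Fstl1, a secreted glycoprotein, was 0.08 in stellate and -2.64 in endothelial nuclei, a difference of 2.67 (adjusted p = 0.00995). Chn2, a GTPase-activating protein, rose in stellate nuclei (1.31, adjusted p = 0.017, lost without mouse 1, 4 or 7, and 0.69 and not called with pools without Liver) and had a change of -0.89 in endothelial nuclei, a difference of 2.16 (adjusted p = 2.4e-05).

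Against hepatocyte nuclei the change was more positive for 17 genes (0.126%) and more negative for 47 (0.347%). Tiparp, a target of the aryl hydrocarbon receptor, was at 49.5 ± 16.04 and 58.6 ± 53.5 CPM in stellate nuclei and rose in hepatocyte nuclei from 20.1 to 186 CPM, a difference of -3.09 (adjusted p = 1.5e-06). Nexn, an actin-binding protein gene, had a change of -0.18 in stellate and -2.54 in hepatocyte nuclei, a difference of 2.23 (adjusted p = 0.00414). The ribosomal protein gene Rps21 rose in stellate nuclei (1.81, adjusted p = 0.00773, lost without mouse 2 or 3) and had -0.27 in hepatocyte nuclei, a difference of 2.08 (adjusted p = 0.00666). Its stellate change was 0.54 with pool as a covariate (adjusted p = 0.762) and 0.92 with spliced counts alone (adjusted p = 0.179). Of the 24 falls in stellate nuclei, 12 differed from the hepatocyte change, 7 from the endothelial change and 6 from both, Fbxl7 among them (-1.93, adjusted p = 0.00142, and -1.60, adjusted p = 0.00208). The 24 were chosen by their stellate change, and the interaction test uses the same stellate counts. Such differences were thus favoured in advance, and these counts are no separate evidence about the falls.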

How the data were processed

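Members and gene lists were chosen with earlier results of these data known. The authors pseudoaligned reads of nuclei tagged with hashtag oligos to spliced and unspliced GRCm38 transcripts (Salmon Alevin, Alevin-fry), removed doublets, clustered nuclei and named clusters from markers. They deposited counts of UMIs per nucleus as spliced, unspliced and ambiguous, which were added here, and a table of nuclei with sample, cell type and cluster. The hashtag fraction (0 to 1) that the authors deposited per nucleus served only to check sample assignment.

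UMIs were summed over the stellate nuclei of each sample (at least 5 nuclei), 8 Liver against 8 Cell Suspension, genes with at least 10 counts were kept, and edgeR 4.0.16 (R 4.3.3) gave quasi-likelihood tests with Benjamini-Hochberg adjustment at 0.05. The planned normalization (TMM over all genes) gave unchanged genes a negative median when tested on simulated data at these depths, so factors were taken from genes of at least 50 CPM, a change made after the data were seen, and the planned form was kept as an alternative. Interaction fits had sample as covariate. The other comparisons were 2-sided exact permutation tests over samples (Python 3.11.15, scipy 1.17.1). Since the same number marks the same mouse, replicate numbers pair the samples. Deviations of the same mouse correlated at -0.179 to 0.356 (median 0.00495), those of different mice at a median of 0.0138. Alternatives were DESeq2 1.42.0, other factors and filters, spliced or unspliced counts, a replicate block, pool, depth, and leaving out each mouse. TMMwsp, the pools without Liver and the share without cultured cells were chosen after seeing the data.

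Genes were named if they were in a list, among the 10 largest rises or falls past the threshold at 50 CPM or more, the 15 identity genes of largest fold (of which 1 is not reported here, leaving 14), or the 5 largest differences of each direction past the threshold of an interaction at 50 CPM or more. Wt1, Myh11, Pkhd1, Muc16, Gpm6a, Celf2, Pcdh15, Sod3, Tmsb10 and Prdm6 were chosen after their values were seen. Intervals and floors for sums of UMIs cover counting error only.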

Additional observations from a re-analysis of the deposited data

Results flagged for a closer look

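Single samples stood apart from the other 7 of their group in 18 of 150 groups tested by Dixon's criterion, where chance flags about 1 in 20 groups. In Cell Suspension, mouse 2 had a stellate share of 2.21% and mouse 7 an unspliced share of 76.8%. Mouse 7 of Cell Suspension also stood apart for Cyp3a11 (663 CPM), Gdf15 (257 CPM), Apob (1244 CPM) and Vegfa (325 CPM), and mouse 3 for Hecw2 (322 CPM), Tmsb10 (175 CPM) and Rhob (175 CPM). Further samples of Cell Suspension were mouse 8 for Hspa5 (279.9 CPM), mouse 4 for Lama2 (306 CPM) and mouse 5 for Col8a1 (74.9 CPM). In Liver they were mouse 1 for the stellate share of nuclei other than hepatocytes (30.5%), also without cultured cells (31.5%), mouse 2 for Celf2 (625 CPM), mouse 8 for Chn2 (173 CPM), mouse 6 for Pcdh15 (226 CPM) and mouse 5 for Id2 (38.8 CPM).

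The change from Liver to Cell Suspension differed between stellate and endothelial nuclei by an interaction test for these genes, given as stellate minus endothelial log2 fold change. Differences were negative for Gpr39 (-2.69), Rgs5 (-2.27), Vipr1 (-2.69), Tbx20 (-2.56) and Adamts1 (-2.63), and positive for Pcdh7 (2.78), Chn2 (2.16), Npr3 (2.73), Fstl1 (2.67) and Rnf165 (2.12). The same test against hepatocyte nuclei gave negative differences for Atf3 (-2.88), Tiparp (-3.09), Flt1 (-3.50), Plxna4 (-2.63) and Actg1 (-3.18). It gave positive ones for Rps21 (2.08), Nexn (2.23), Rpl24 (2.05), AC151289.1 (2.71) and Nhs (1.77).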

How the results depend on the processing

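The count of 193 genes higher in Cell Suspension was 340 with no filter, 86 with edgeR's own filter, 115 with unspliced and 40 with spliced counts alone, 326 with pool as covariate, 78 with samples thinned to the shallowest, 107 without hepatocyte-higher genes, 122 with TMMwsp and with TMM over all genes, 95 with Cell Suspension of pools without Liver, and 134 to 240 without 1 mouse. The count of 24 lower genes was 40 with total UMIs alone, 45 with no filter, 101 with spliced counts, 48 with pool as covariate, 10 thinned, 291 with TMMwsp, 249 with TMM over all genes, 3 with pools without Liver, and 15 to 30 without 1 mouse. TMMwsp and spliced counts moved the share of calls that were higher from 88.9% to 29.5% and 28.4%. The replicate block for the pairing by mouse gave 207 higher and 25 lower. The endothelial differences (41) were 20 with edgeR's filter and 8 with no sample term, and the hepatocyte differences (64) were 40 with no sample term. Without 1 mouse, the difference in share ran from -3.66 to -3.12 points, in median UMIs from -1341 to -812, in hepatocyte marker CPM from 0.48 to 0.81 (log2) and in unspliced share from -8.71 to -6.74 points. Log2 fold changes reversed with unspliced counts alone for Prelp (-0.28), Sod3 (-0.75), Tmsb10 (-2.68), Marcks (-0.023) and Tmsb4x (-0.15), and with spliced counts alone for Rxra (-0.16), Fgb (-0.16), Cyp3a11 (-0.18) and Apob (-0.10). The median over all genes tested was -0.12 with unspliced and -0.60 with spliced counts alone, so these 4 spliced values lay above that of all genes. The causes were not tested, apart from fewer samples, nuclei or genes where an alternative removes them. Jun, Fosb, Fos, Egr1, Atf3, Btg2, Ccn1, Jund, Actb, Gdf15, Hist1h1e, Krt18 and, among falls, Gpr39 kept their call under every alternative that tested them. Depth limits Cell Suspension, where 1 UMI was worth at least 13.1 CPM.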
